A study of Mus musculus with 2 samples.

Results

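Promoters of long non-coding RNA (lncRNA) genes that lie well away from coding promoters were examined in the open chromatin of cultured mouse adipocytes. A site was a merged interval of DNase-seq peaks, joined at an overlap of 1 bp, that held a peak of each of 2 libraries. It counted as an lncRNA promoter site when it was centred within 1000 bp of a transcript start of a lincRNA, antisense or processed_transcript gene of GENCODE M21. The nearest transcript start of a protein-coding gene also had to be more than 5 kb but at most 100 kb away. By this rule 1268 of 114395 autosomal shared sites were lncRNA promoter sites, out of 117590 shared sites on all assembled chromosomes. No measured value entered the rule beyond the presence of a peak in both libraries.

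The samples were Mus musculus adipocytes, differentiated in vitro from 3T3-L1 and taken at Day 8. The 2 libraries are biological replicates 1 and 2 of 1 group, each combined from more than 1 technical replicate. Both cultures share 1 donor record, and 3T3-L1 is a clonal preadipocyte line, so the spread between the libraries covers culture and library preparation and not animals. The labels name the strain C57BL/6J, whereas 3T3-L1 is usually traced to Swiss mice, and the text assumes neither. No undifferentiated or control library was analysed here, so nothing below is a change upon differentiation. The promoters of all 9 adipocyte markers examined (Pparg, Cebpa, Adipoq, Fabp4, Plin1, Lpl, Lipe, Cd36 and Slc2a4) held a peak of each library. Among 4 preadipocyte markers, Pdgfra, Col1a1 and Thy1 did and Dlk1 did not, and among 9 markers of blood, endothelium, liver, muscle, pluripotent cells, epithelium and neurons only the blood marker Csf1r did. Replicate 1 held 133695 peaks on assembled chromosomes and replicate 2 held 216556, and the number of reads behind them is unknown.

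DNase I cuts DNA where nucleosomes are displaced, so its cut sites accumulate at active or poised promoters, enhancers and insulators. An lncRNA is a transcript beyond a short size limit with no conserved reading frame. A lincRNA gene lies between coding genes, an antisense gene overlaps a coding gene on the opposite strand, and processed_transcript is the annotation's class for remaining non-coding transcripts, many of them hosts of small nucleolar RNAs. Some lncRNA promoters lie in CpG islands and are used in most cell types, while others have the CpG-poor make-up of enhancers. An open start does not show that an RNA is made, and no RNA was measured in the data used here.

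The 10 sequences below are examples of the range among these sites, from CpG-rich promoters with words of general promoter factors to CpG-poor sites with words of factors known from enhancers. All are read from the RefSeq GRCm38.p6 genome (mm10), forward strand, 5′ to 3′, over the whole merged interval. Capitals mark the named consensus in either orientation where it was searched, in the central 150 bp, and the same word outside that window is left in lower case. The CpG-rich set begins with the start of Dancr, a snoRNA host lncRNA (chr5:74092916-74093065, intergenic, an NF-Y word), which stood among the 10 highest-ranked sites. Snhg8, also a snoRNA host (chr3:123508456-123508625, intergenic), holds 2 GC boxes. 1810044D09Rik (chr6:91440876-91441045, intergenic) holds a CRE, the cyclic AMP response element. Dleu2, a host of microRNAs (chr14:61648796-61648945, intergenic), holds an NRF1 word. The highest-ranked site with that word, at Gm41442, is CpG-poor and is not printed. 1700028E10Rik (chr5:151368556-151368825, in an intron of the coding gene model Gm42906) holds an ETS word. Pvt1, the lncRNA beside Myc (chr15:62037896-62038065, intergenic), holds a CRE whose first base lies 2 bp downstream of its annotated start.
Dancr: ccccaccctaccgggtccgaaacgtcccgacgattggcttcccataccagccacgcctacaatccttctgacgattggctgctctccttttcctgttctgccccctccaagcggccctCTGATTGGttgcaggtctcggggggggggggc
Snhg8: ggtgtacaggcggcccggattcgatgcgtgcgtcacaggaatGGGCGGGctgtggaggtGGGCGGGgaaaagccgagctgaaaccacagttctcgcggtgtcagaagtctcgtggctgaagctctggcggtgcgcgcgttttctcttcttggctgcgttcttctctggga
1810044D09Rik: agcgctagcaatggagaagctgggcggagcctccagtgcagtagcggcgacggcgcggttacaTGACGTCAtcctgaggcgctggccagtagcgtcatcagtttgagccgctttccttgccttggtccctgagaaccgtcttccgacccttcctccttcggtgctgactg
Dleu2: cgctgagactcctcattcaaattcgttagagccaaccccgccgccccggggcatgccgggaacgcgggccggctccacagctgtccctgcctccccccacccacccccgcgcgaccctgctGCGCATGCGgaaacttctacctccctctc
1700028E10Rik: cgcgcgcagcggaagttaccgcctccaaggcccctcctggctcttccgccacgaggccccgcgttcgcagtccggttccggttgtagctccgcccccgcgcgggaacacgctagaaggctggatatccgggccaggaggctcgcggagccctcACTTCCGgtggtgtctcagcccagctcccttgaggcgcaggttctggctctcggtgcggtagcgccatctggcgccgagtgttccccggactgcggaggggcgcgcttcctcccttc
Pvt1: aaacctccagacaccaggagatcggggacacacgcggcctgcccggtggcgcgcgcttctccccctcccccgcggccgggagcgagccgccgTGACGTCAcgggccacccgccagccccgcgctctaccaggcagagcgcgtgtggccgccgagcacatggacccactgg

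The CpG-poor set shows the highest-ranked site with each of 4 words of factors known from fat cell enhancers, chosen by rank and not because each word is more frequent in CpG-poor sites. 5430425K12Rik (chr13:80940976-80941145, intergenic) holds an AP-1 word that starts 64 bp upstream of the lncRNA start, and also an ETS word that is not capitalised. A further AP-1 match lies just before the capitalised one, outside the central window. Runx2os2, antisense to the osteoblast factor gene Runx2 and inside one of its introns (chr17:44709976-44710145), holds a C/EBP word. Trp53cor1, the lncRNA beside the cell cycle inhibitor gene Cdkn1a (chr17:29078996-29079145, intergenic), holds a C/EBP-ATF composite word. Gm48903 (chr10:117390556-117390745, intergenic) holds a glucocorticoid receptor element (GRE). This site lies in a segment of chromosome 10 described below and had 37 other shared sites within 10 kb.
5430425K12Rik: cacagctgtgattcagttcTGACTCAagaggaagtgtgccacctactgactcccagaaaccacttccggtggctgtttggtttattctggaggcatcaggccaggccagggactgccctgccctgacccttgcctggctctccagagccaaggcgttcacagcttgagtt
Runx2os2: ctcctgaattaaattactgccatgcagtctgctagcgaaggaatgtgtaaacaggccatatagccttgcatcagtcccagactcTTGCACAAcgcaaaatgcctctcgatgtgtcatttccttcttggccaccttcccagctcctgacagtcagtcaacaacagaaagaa
Trp53cor1: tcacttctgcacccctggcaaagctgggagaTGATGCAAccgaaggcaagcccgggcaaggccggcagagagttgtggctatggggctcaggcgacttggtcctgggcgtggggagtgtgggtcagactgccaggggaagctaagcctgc
Gm48903: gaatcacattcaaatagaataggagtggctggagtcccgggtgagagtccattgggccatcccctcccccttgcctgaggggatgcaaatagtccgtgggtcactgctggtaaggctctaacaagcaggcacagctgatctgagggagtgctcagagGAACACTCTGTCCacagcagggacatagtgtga

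The 1268 sites lay nearest to starts of 911 lncRNA genes. The nearest start belonged to a lincRNA gene at 800 sites (63.1%), to an antisense gene at 286 (22.6%) and to a processed_transcript gene at 182 (14.4%). One site was found at 673 genes, 2 sites at 162 genes and 3 or more at 76 genes. Most sites were intergenic (1022, 80.6%), while 223 (17.6%) lay in an intron and 23 (1.81%) in an exon of a coding gene. The transcript at the nearest start was spliced at 1199 sites (94.6%). The median distance to the nearest coding start was 27794 bp, with 201 sites (15.9%) at 5 to 10 kb and 330 (26.0%) beyond 50 kb. Little is known about many of these genes, as 564 of the 911 have a provisional symbol beginning with Gm and 206 one ending in Rik.

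In each library, most lncRNA genes of this kind had no peak at a start in the distance band. Of 4308 autosomal genes of the 3 classes with a start in the same distance band from coding starts, replicate 1 had a peak within 1000 bp of such a start in 951 (22.1%) and replicate 2 in 1297 (30.1%), a mean of 26.1% ± 5.68 (SD, n = 2). A site shared by both libraries lay there in 924 genes (21.4%, exact binomial 95% interval 20.2 to 22.7, counting error only). This count includes genes that share a site with a nearer lncRNA start, which the 911 do not. Protein-coding genes had an open start in 58.4% and 62.5% of 20807 genes, a mean of 60.5% ± 2.91 (SD, n = 2), so the shares of the 2 gene kinds did not overlap between libraries. The coding share counts every transcript start of a gene with no distance limit, so the 2 shares are not measured alike. Among the lncRNA classes, the share open in both libraries was 31.4% of 334 processed_transcript genes, 21.8% of 2725 lincRNA genes and 18% of 1249 antisense genes. The order of the 3 classes was the same in each library, at 32.0%, 22.4% and 18.7% in replicate 1 and 43.1%, 30.02% and 26.8% in replicate 2. With 1 group of 2 libraries no test over samples can be made, and sites of a library are not replicates, so values are set side by side without a p-value throughout.

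Centres of the sites gathered just upstream of the annotated lncRNA start. Of the 1268 centres, 752 lay upstream, 515 downstream and 1 at the start, with a median offset of -53 bp. Within 100 bp of a start lay 321 sites (25.3%, interval 22.9 to 27.8), of which 233 were upstream and 87 downstream. Beyond 500 bp the sides were nearly even, with 222 upstream and 232 downstream. Coding promoter sites, the 24011 shared sites centred within 1000 bp of a coding start, lay closer, with 39.4% within 100 bp and a median distance of 180 bp against 326.5 bp for lncRNA promoter sites. In 259 of the 911 genes (28.4%) the strongest site lay within 100 bp of a start. Of the 238 genes with 2 or more sites, the strongest was also the closest in 140 (58.8%). As 162 of them had only 2 sites, part of this share arises from the count alone, and that part was not computed. The rule's limit fell between Gm30074, inside at 999 bp with peak values of 111 and 130, and a site of Gm48903, outside at 1001 bp with 118 and 147.

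**Figure D1:**
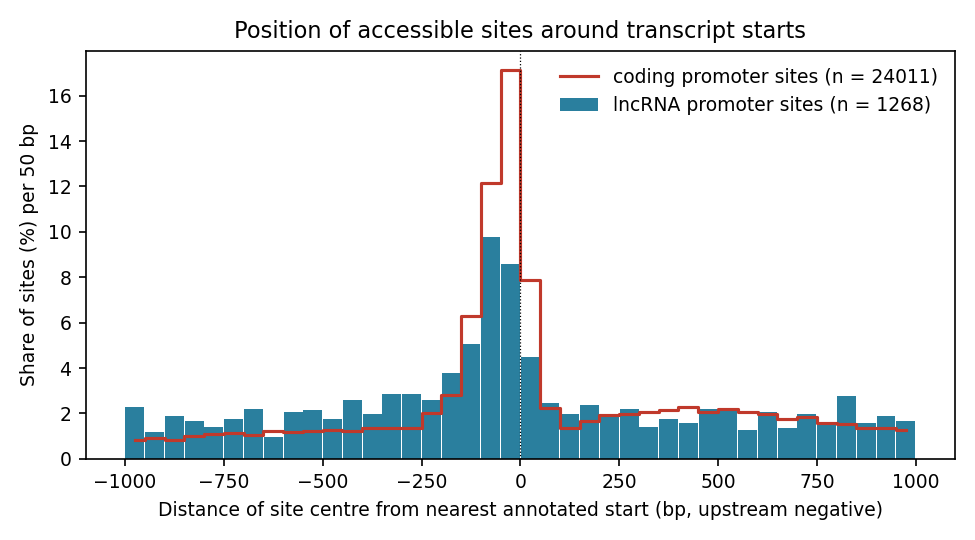
Share of sites per 50 bp against the distance (bp) of the site centre from the nearest annotated start, for lncRNA promoter sites (bars, n = 1268) and coding promoter sites (line, n = 24011). Both peak just upstream of the start, and 25.3% of lncRNA against 39.4% of coding promoter sites lie within 100 bp.

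The peak values deposited by the authors, whole numbers from 1 to 150, level off at the top and are higher in replicate 2, so they were ranked within each list. lncRNA promoter sites had a median value of 56 in replicate 1 and 100.5 in replicate 2, the 63.7th and 77.2nd percentile of the lists (mean 70.5 ± 9.55, SD, n = 2). In both libraries this lay below coding promoter sites (75.7 and 86.0) and above the 55258 other distal sites (49.98 and 68.1), which lie in the same distance band with no non-coding gene start within 1000 bp. All autosomal shared sites had 54.1 and 71.2, and ranks were taken over whole lists that include peaks of 1 library alone. The 3 classes of gene were close together, with 64.8 and 77.9 for lincRNA, 61.0 and 74.8 for antisense and 64.8 and 78.3 for processed_transcript sites. A total of 189 lncRNA promoter sites (14.9%, interval 13.0 to 17) were in the top 10% of both lists, at values above 94 and 123, against 10.4% of all autosomal shared sites. This share was 28.3% at coding promoters and 5.68% at other distal sites. Hotspots, the wider regions the authors called around peaks, carry the −log10 of a q value with a ceiling of 100, and 799 lncRNA promoter sites (63.0%) were at the ceiling in both libraries against 55.3% of all shared sites. The hotspots at lncRNA promoter sites had median widths of 368.5 and 614.5 bp in the 2 libraries, against 791 and 1413 bp at coding promoters and 290 and 403 bp at other distal sites.

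CpG-rich lncRNA promoter sites ranked higher than CpG-poor ones in both libraries, although they were the minority of the strongest sites. A site was called CpG-island-like, or CpG-rich, when the 300 bp around its centre had a GC content of at least 50% and an observed over expected CpG ratio of at least 0.6. This held for 151 lncRNA promoter sites (11.9%, interval 10.2 to 13.8), close to the 11.4% of all autosomal shared sites, while coding promoter sites reached 48.7% and other distal sites 0.889%. The processed_transcript class had the highest share, 42 of 182 (23.1%, interval 17.2 to 29.9), followed by 93 of 800 lincRNA sites (11.6%, interval 9.49 to 14.1) and 16 of 286 antisense sites (5.59%, interval 3.23 to 8.93). Median GC was 50% at lncRNA promoter sites, between 57.3% at coding promoters and 46.7% at other distal sites. The median CpG ratio was 0.273, 0.622 and 0.181 in the same order.

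Split by CpG content, lncRNA and coding promoter sites had nearly the same ranks. CpG-rich lncRNA promoter sites had median percentiles of 89.3 and 93.9 and CpG-rich coding promoter sites 88.9 and 93.5. The 1117 CpG-poor lncRNA promoter sites had 61.5 and 74.8, beside 59.2 and 74.8 for CpG-poor coding promoter sites. CpG-poor other distal sites were lower in both libraries, at 49.98 and 68.1, and so were CpG-rich other distal sites, at 79.4 and 87.0, than CpG-rich lncRNA promoter sites. The top 10% of both lists held 70 of the 151 CpG-rich lncRNA promoter sites (46.4%, interval 38.2 to 54.6) and 119 of the CpG-poor ones (10.7%, interval 8.91 to 12.6). The corresponding shares at coding promoters were 45.7% and 11.7%.

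**Figure D2:**
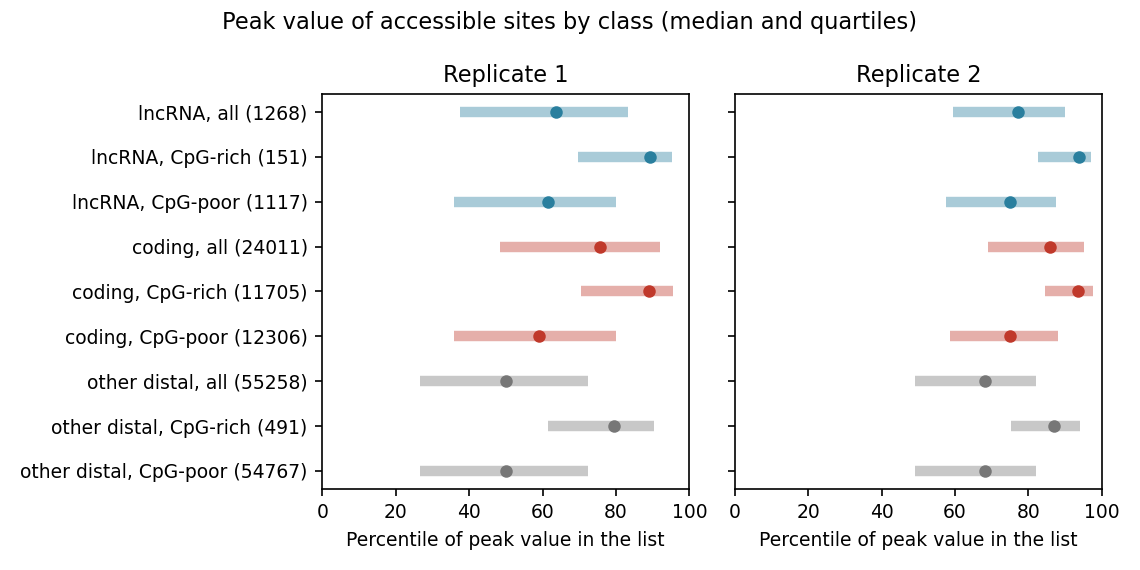
Percentile of the peak value within each library's list for lncRNA promoter, coding promoter and other distal sites, each also split into CpG-rich and CpG-poor (points: medians, bars: quartiles, site numbers in parentheses). CpG-rich lncRNA sites have medians of 89.3 and 93.9, beside 88.9 and 93.5 at CpG-rich coding sites.

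Position and sequence went together. Of the sites within 100 bp of an lncRNA start, 25.5% (interval 20.9 to 30.7) were CpG-rich, against 9.74% (7.27 to 12.7) beyond 100 and up to 500 bp and 4.63% (2.89 to 6.98) beyond 500 bp. Median percentiles were 74.1 and 83.2 within 100 bp, 62.7 and 75.5 up to 500 bp, and 61.5 and 75.2 beyond. Even within 100 bp the share of CpG-rich sites was well below the 73.6% at coding starts.

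**Figure D3:**
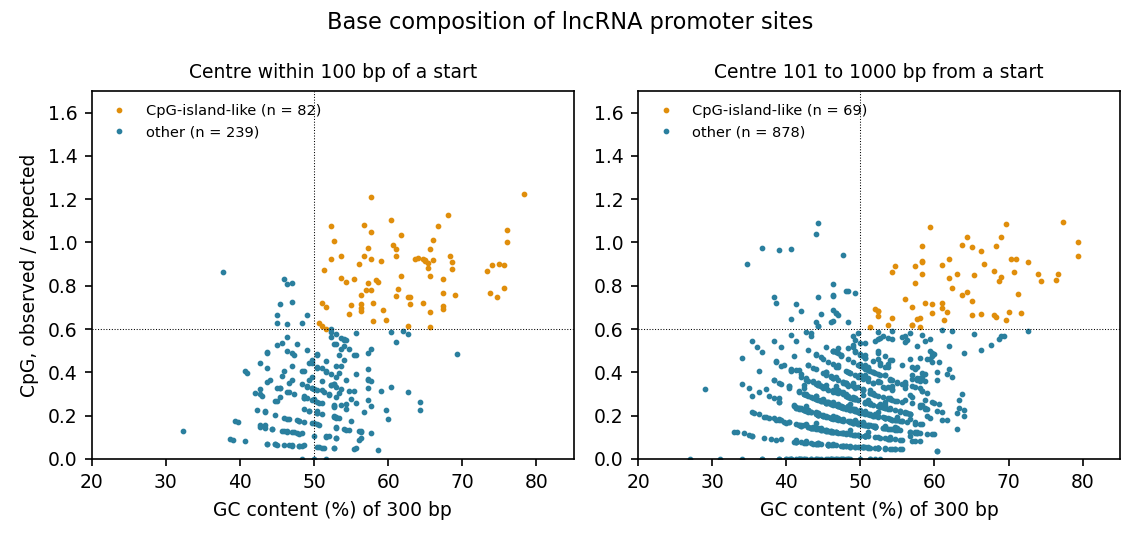
Observed over expected CpG ratio against GC content (%) of the 300 bp around each lncRNA promoter site, for sites centred within 100 bp of a start (left) and farther away (right). Dotted lines mark the limits of 50% GC and a ratio of 0.6, above which lie 82 of 321 sites on the left and 69 sites on the right.

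Consensus words of 19 transcription factor classes were searched on both strands of the central 150 bp of each site. The words of SP and KLF, ETS, CRE-binding and NF-Y factors, known from promoters in general, were more frequent in the CpG-rich than in the CpG-poor lncRNA promoter sites, with intervals that did not overlap. The GC box GGGCGGG, the word of SP and KLF factors, was in 51 of 151 CpG-rich sites (33.8%, interval 26.3 to 41.9) and 38 of 1117 CpG-poor ones (3.40%, interval 2.42 to 4.64), with 21.9% of coding promoters, 1.61% of other distal sites and 6.03% of all shared sites. Split in the same way, coding promoters had it in 37.6% of CpG-rich and 6.98% of CpG-poor sites, and other distal sites in 20.8% and 1.43%. Snhg8, printed above, holds the GC box at 2 places. The ETS word CGGAAGT was in 8.61% of CpG-rich and 1.52% of CpG-poor lncRNA promoter sites (all shared sites 1.62%). For the CRE word TGACGTCA, bound by CREB and ATF factors, the shares were 5.30% and 0.179% (all 0.474%). The NF-Y word CCAATNAG, seen in Dancr, was in 7.28% and 2.15% (all 2.47%). The E-box CACGTG was in 7.28% (interval 3.69 to 12.7) and 2.86% (interval 1.97 to 4.02, all 2.84%), which overlap at this number of sites. The NRF1 word CGCATGCGC, seen in Dleu2, was in 4 CpG-rich sites (2.65%, interval 0.726 to 6.64) and 5 CpG-poor sites (0.448%, interval 0.145 to 1.04, all 0.323%). YY1, searched as AANATGGCG, was in 2 CpG-rich sites (1.32%, interval 0.161 to 4.70) and 1 CpG-poor site (all 0.589%). For NRF1 and YY1, too, the intervals of CpG-rich and CpG-poor sites overlap. Several of these words contain CpG themselves, so the split on CpG in part fixes where they fall.

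For words of factors known from enhancers the shares in CpG-rich and CpG-poor lncRNA promoter sites had overlapping intervals throughout. Over all lncRNA promoter sites, AP-1 and C/EBP words had shares between those of coding promoters and other distal sites. AP-1, searched as TGANTCA, was in 8.68% of lncRNA promoter sites, against 4.26% of coding promoters, 10.5% of other distal sites and 8.95% of all. Split by CpG, it was in 104 CpG-poor sites (9.31%, interval 7.67 to 11.2) and 6 CpG-rich sites (3.97%, interval 1.47 to 8.45). Coding promoters had AP-1 in 6.501% of CpG-poor and 1.90% of CpG-rich sites, and other distal sites in 10.5% and 5.09%. The C/EBP words TTGCGCAA or TTGCACAA or TTATGCAA were in 27 lncRNA promoter sites (2.13%, interval 1.41 to 3.08; coding 1.40%, other distal 2.98%, all 2.66%), and C/EBP factors are central to adipocyte differentiation. All 27 were CpG-poor (2.42%, interval 1.599 to 3.498), and 0 of 151 CpG-rich sites allows a share of up to 1.99%. Coding promoters had a C/EBP word in 1.97% of CpG-poor and 0.786% of CpG-rich sites, and other distal sites in 2.99% and 2.04%. The interval of CpG-poor lncRNA promoter sites thus included the C/EBP shares of both CpG-poor coding promoters and CpG-poor other distal sites. The C/EBP-ATF composite TGATGCAA was in 11 sites (all 0.974%), again with 0 of 151 CpG-rich ones. TEAD, CATTCCA, was in 3.67% of CpG-poor sites (interval 2.65 to 4.95) and 1 CpG-rich site (0.662%, interval 0.0168 to 3.63, all 3.15%). RUNX, TGTGGTT, was in 3.76% (interval 2.72 to 5.05) and 1.99% (interval 0.412 to 5.70, all 3.94%).

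CTCF, the insulator factor, was searched as CCANNAGNNGGC and found in 7.95% of CpG-rich sites (interval 4.17 to 13.5) and 7.70% of CpG-poor sites (interval 6.20 to 9.42), with 3.99% of coding promoters, 10.9% of other distal sites and 8.91% of all. Split by CpG, CTCF was in 1.74% of CpG-rich and 6.12% of CpG-poor coding promoters, and in 14.5% and 10.9% of other distal sites. The STAT word TTCNNNGAA was in 5.96% of CpG-rich and 6.54% of CpG-poor lncRNA promoter sites (all 5.54%). NFI, TGGCNNNNNGCCA, was in 1.99% and 2.24% (all 2.05%), the EBF word TCCCNNGGGA in 13 sites (1.03%, all 1.04%), and the TATA word TATAAA in 53 sites (4.18%, all 5.20%). The GRE, searched as GNACANNNTGTNC, was in 9 lncRNA promoter sites (0.710%, interval 0.325 to 1.34, all 0.440%), 2 of them CpG-rich (1.32%, interval 0.161 to 4.70) and 7 CpG-poor (0.627%, interval 0.252 to 1.29). The direct repeat AGGNCANAGGTCA of PPAR-RXR, the heterodimer that drives fat cell genes, was in 2 sites (0.158%, all 0.156%). A match is a description of the letters, and a window without one says nothing about whether the factor binds.

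**Figure D4:**
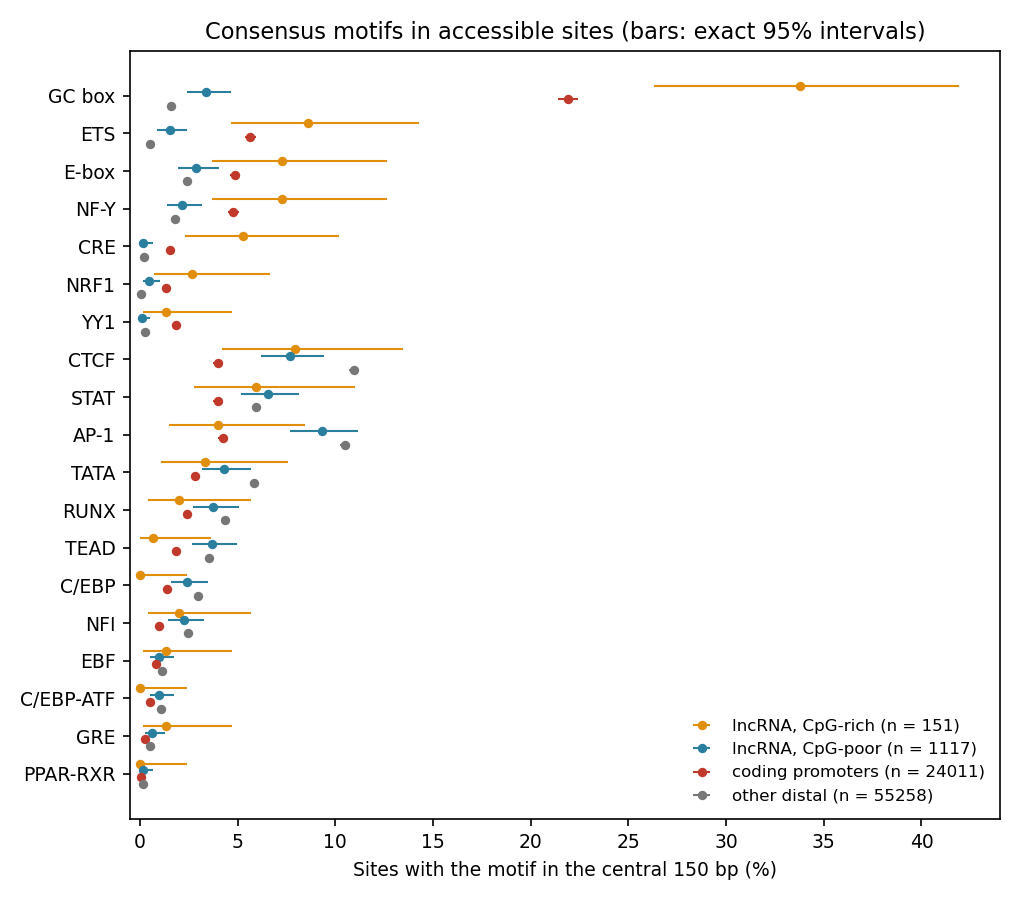
Percent of sites with each consensus word in the central 150 bp (points, with exact 95% intervals that cover counting error only) for CpG-rich and CpG-poor lncRNA promoter sites, coding promoters and other distal sites. Coding promoters and other distal sites are not split by CpG here. The GC box is in 33.8% of CpG-rich and 3.40% of CpG-poor lncRNA sites, while AP-1 is in 3.97% and 9.31%.

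A set of 6 lists of known lncRNA genes were read against the 21.4% of all eligible lncRNA genes with an open start in both libraries. Lists are small and their genes were chosen with earlier results in view, so the counts are descriptions. Whether a listed gene is open or has no peak refers only to its eligible starts, those in the distance band. Its other starts were not counted. All 8 eligible genes of the list of small nucleolar RNA hosts had an open start (Snhg5, Snhg6, Snhg8, Snhg12, Snhg15, Snhg17, Snhg20 and Dancr). Small nucleolar RNAs guide the modification of ribosomal RNA. Snhg14, whose symbol has the same root, was listed with the imprinted lncRNAs instead and had no peak of either library at an eligible start. The strongest site of Dancr had peak values of 130 in replicate 1 and 148 in replicate 2, with its centre 69 bp upstream of the start. Snhg8 followed with 115 and 146, and Snhg12 had the lowest strongest site of the list with 87 and 131. The strongest sites of the 8 genes thus ranked from the 87.1th percentile upward in replicate 1 and from the 93.5th percentile upward in replicate 2. Second sites were far weaker in several, such as 36 and 68 at Dancr.

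All 6 eligible genes of the list of broadly expressed lncRNAs were open as well. Malat1, a very abundant nuclear RNA of the speckles, had 7 sites, the most of any gene, with values from 55 to 119 in replicate 1 and from 99 to 144 in replicate 2. The 2 highest, at 119 and 144 and at 112 and 140, lay 929 bp and 9 bp upstream of annotated starts. Its neighbour Neat1, the scaffold RNA of paraspeckles, had 3 weaker sites at 71 and 121, 49 and 105, and 46 and 100. 1700020I14Rik, also known as Cyrano, had a strongest site at 114 and 144, and 2900097C17Rik, also known as Norad, one at 89 and 125. Trp53cor1 had 119 and 144. Pvt1 was the weakest of the list, with 4 sites that reached at most 54 in replicate 1 and 97 in replicate 2, although its CpG-rich start carries the CRE printed above.

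Of 11 eligible genes in the list of microRNA host lncRNAs 8 were open, or 7 of 10 without Mirt1, whose symbol stands for a transcript associated with myocardial infarction and not for a microRNA host. Dnm3os, host of the miR-199a and miR-214 cluster in an antisense position to Dnm3, had 5 sites with a strongest one of 115 and 141, centred 12 bp upstream of its start. Carmn, host of miR-143 and miR-145, had 4 sites up to 119 and 147, and Dleu2, host of miR-15a and miR-16-1, had 5 up to 112 and 139. Mir155hg was the weakest, at 33 and 74. Mir124a-1hg and Mir9-3hg, named for neuronal microRNAs, and Mir133a-1hg, named for a muscle microRNA, had no peak of either library at an eligible start. Among 5 imprinted lncRNAs, Airn, which silences Igf2r in cis, had 1 site in an intron of Igf2r at 85 and 134, and Rian had 1 site at 54 and 84. Meg3, H19 and Snhg14 had none at an eligible start, although Meg3 and Rian lie in the same imprinted domain, which also holds Dlk1.

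Of 8 eligible lncRNAs studied in fat cells 4 were open, which were Malat1, Neat1, Ctcflos (2 sites up to 83 and 130) and Gm15551 (2 sites up to 117 and 135). At their eligible starts, H19, Meg3 and Gm16551 had no peak of either library and Hotair a peak of replicate 2 alone. None of 8 eligible lncRNAs of other lineages was open in both libraries, which in 8 genes allows a share of up to 37.5%. Fendrr, Miat, Dlx6os1, Dlx1as, Pantr1, Pantr2 and Hand2os1 had no peak of either library at an eligible start, and Sox2ot had one of replicate 2 alone. Starts of these genes outside the distance band were not examined.

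**Figure D5:**
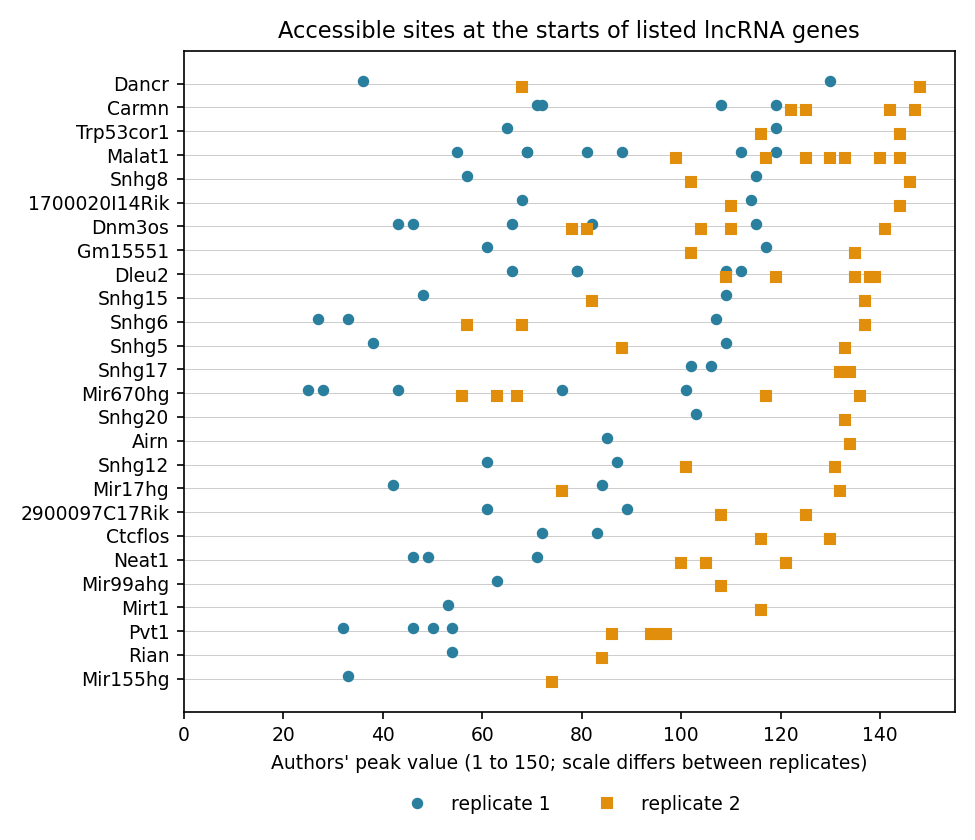
The authors' peak value of each site at the listed lncRNA genes that are open in both libraries, in replicate 1 (circles) and replicate 2 (squares), with genes ordered by their strongest site. Dancr leads with 130 and 148 and Mir155hg is last with 33 and 74, and the scale differs between replicates.

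Some lncRNA promoter sites had a coding gene of fat cell biology or of the glucocorticoid response as their nearest one. The nearest coding gene was in at least 1 of 5 lists, counted together as adipocyte lists, at 28 lncRNA promoter sites (2.21%). At other distal sites the share was 1.35%. The 28 sites belonged to 18 coding genes, so single loci weigh heavily. The 5 lists include 1 of glucocorticoid response genes, which is not confined to genes of fat cells. Glucocorticoid response genes were nearest at 7 sites (0.552%, other distal 0.154%), of which 3 were at Klf9, 2 at Cdkn1a and 1 each at Fkbp5 and Dusp1. Lipid storage and lipolysis genes were nearest at 7 sites (0.552%, other distal 0.210%), adipokine and insulin response genes at 7 (0.552%, other distal 0.337%), fatty acid and triglyceride synthesis genes at 5 (0.394%, other distal 0.235%) and adipogenic transcription factors at 5 (0.394%, other distal 0.434%). Klf9 counts in the first and the last of these lists. Preadipocyte and fibroblast genes were nearest at 1 site (Prrx1, 0.0789%, other distal 0.281%). Genes of neuron, muscle, liver, blood and endothelium were nearest at 1 (Hnf4a, 0.0789%, other distal 0.186%). Nearness is not evidence that a site acts on a gene.

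Several of these sites lay around Irs2, which carries the insulin signal inside the cell. The site of 3930402G23Rik had values of 133 and 142 and lay 79877 bp from the Irs2 start, and the 2 sites of Gm44956 had 102 and 140 at 37747 bp and 103 and 133 at 37237 bp. 2410080I02Rik, 6165 bp from the glucocorticoid-induced factor gene Klf9, had a CpG-rich site of 108 and 148 with the GRE word at chr19:23135093-23135105, which starts 193 bp downstream of the lncRNA start. Its neighbour 5665 bp from the same gene had 84 and 141. Trp53cor1, described above, lay 11905 bp from Cdkn1a with 119 and 144. All of these sites except the second one of 2410080I02Rik were in the top 10% of both lists.

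Gm26608 lay 15822 bp from Insig1, a brake on sterol and fatty acid synthesis, with 91 and 138. Gm35665 lay 22298 bp from Cebpa, a master factor of adipocytes, with 94 and 132. Gm11773, in an intron of Ccdc57, lay 6364 bp from the fatty acid synthase gene Fasn, with 86 and 130. Gm47948 lay 57410 bp from Nampt, the NAD-producing enzyme also released by fat cells, with 87 and 124. The next 4 genes were picked after their values were seen. 4732471J01Rik had 2 sites near Lipe, the hormone-sensitive lipase gene, at 74 and 122 and at 67 and 119, and AC151478.3 had 1 near Scd1, the stearoyl desaturase gene, at 53 and 92. E230001N04Rik had 1 site 5164 bp from Fkbp5 at 65 and 100, and B430212C06Rik had 3 near the lipid droplet gene Cidea, with at most 61 in replicate 1 and 105 in replicate 2.

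Of the 10 sites with the highest mean percentile, 6 lay in 1 segment of chromosome 10 at starts of Gm40770, Gm32141, Gm32235 and Gm32365. This segment, chr10:117389416-117615525 between the coding genes Cpsf6 and Cpm, held 17 lncRNA promoter sites of 5 genes with Gm48903, and each had 21 to 39 other shared sites within 10 kb, against a median of 2 for all lncRNA promoter sites. Their median percentiles were 98.7 and 99.6. Over the whole set, 27 sites (2.13%) had 20 or more shared sites within 10 kb. The part of this dense tiling in the values was not tested. Without these 27, 171 of 1241 sites (13.8%) remained in the top 10% of both lists, and 9.90% of all shared sites treated the same way.

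The other 4 of the 10 highest sites stood at starts of Gm6410 (135 and 149, CpG-rich), Gm43645 (141 and 148, CpG-poor), 1700028E10Rik (130 and 149) and Dancr. Gm43645 and 1700028E10Rik each had the start of a second lncRNA gene on the other strand in the window, namely Gm454 and D730045B01Rik. Starts on both strands were found at 32 sites (2.52%). After Malat1 the genes with most sites were B230206L02Rik with 6, and 1810026B05Rik, 2310008N11Rik and Dleu2 among 8 genes with 5. Their sites varied widely within a gene, from 35 to 77 in replicate 1 and from 81 to 126 in replicate 2 at B230206L02Rik.

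Repeat-derived sequence was rare. Only 39 lncRNA promoter sites (3.08%, interval 2.20 to 4.18) were more than 50% repeat-masked, against 4.23% of all autosomal shared sites, 2.17% of coding promoters and 4.72% of other distal sites. The site of A530076I17Rik, 3 bp upstream of the start, was 85.9% masked and had values of 69 and 112, and that of E130102H24Rik, 26 bp upstream, was 68.8% masked with 80 and 120. These genes were picked after their values were seen, as sites that lie close to a start.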

How the data were processed

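DNase-seq peak and hotspot lists of 2 libraries of 1 group were used as deposited, on mm10 per the labels. The aligner and the peak caller were not given in the sources used here, nor was the read depth. Peak lists as deposited give a signal value per peak (1 to 150, scaling unknown), used only as a percentile within its list. The deposited hotspot lists give the −log10 of a q value up to 100. Identical duplicate peak lines (20 and 33) were counted once. GRCm38.p6 and GENCODE M21 were used with Python 3.11.15, pandas 2.3.3 and scipy 1.17.1. The distance limit was read as the nearest start of any transcript of a protein-coding gene lying within 100 kb. Intervals are exact Clopper-Pearson at 95% and cover counting error only, and a count of 0 allows 3 counts of the total. Site calling and motif search were tested on simulated data.

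The members, gene lists and motifs were chosen with earlier results of these data known. Named are the 10 highest sites by mean percentile, listed lncRNA genes, the 5 genes with most sites (ties beyond were left out by symbol), up to 10 sites nearest to adipocyte genes, and the highest site of some motifs. Of these highest sites, only those that carry the contrast are printed. Dancr, Snhg8, Dleu2 and Pvt1 are printed as listed lncRNA genes and are not the highest sites with their words. Alternatives were single libraries, other windows, overlaps, peak strengths, hotspots, coding starts and gene classes.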

Additional observations from a re-analysis of the deposited data

How the results depend on the processing

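The number of lncRNA promoter sites was 1381 to 2039 with peaks of 1 library alone, 814 with a window of 500 bp, 2319 with 2500 bp, 825 with the stronger 50% of each list and 810 for lincRNA genes only. The share of eligible lncRNA genes with an open start was 22.1% to 30.1% with 1 library alone, 34.7% at 2500 bp and 14.3% with the stronger 50%. The CpG-rich share was 9.02% to 11.8% with 1 library alone, 16.0% at 500 bp, 7.81% at 2500 bp and 15.5% with the stronger 50%. The share in the top 5% of both lists was 6.86%. No share of all shared sites at that cut is given here, so it is not read as high or low. The numbers of sites and genes follow from the wider or narrower selections, and the cause of the changes in CpG-rich share was not tested. The median percentile was 61.4 to 71.5 under the 9 alternatives run for it, against a main mean of 70.5. All lay within 1 SD (9.55), but this SD is the spread between 2 lists of unlike size and does not measure stability. The mean of 62.6 for all autosomal shared sites lies within that SD as well. With 1 library alone the median percentile was 61.4 to 61.5, where sites of that library are counted whether shared or not. These values lay below the medians of both libraries over shared sites, 63.7 and 77.2. Counting only coding transcripts as coding starts gave 1308 sites, and hotspots in place of peaks gave 1053. Leaving out sites with 20 or more neighbours, an alternative chosen after seeing the data, left 1241 sites. Searching 300 bp moved the shares of 11 of 19 motifs, all upward, and replicate 2 alone moved 2 of 19 (CTCF 5.89%, GC box 5.54%). No paired analysis was possible because there is only 1 group. Read depth is unknown, so a site without a peak in 1 library was not detected there and is not shown to be closed.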
